A study of Mus musculus with 14 samples.

Results

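The sinusoidal endothelial markers studied here are 10 genes, Stab1, Stab2, Lyve1, Kdr, Pecam1, Clec4g, Fcgr2b, Oit3, Gpr182 and Dnase1l3, which were followed through every probe set that the array's gene table lists with exactly 1 of these symbols. This gave 17 probe sets out of 45037 that are not array controls, and 10 genes out of 18193. Fcgr2b had 5 probe sets, Lyve1, Clec4g and Dnase1l3 had 2 each, and the remaining 6 genes had 1 each. The samples were whole livers of male CBA/J mice, an inbred strain, 7 fed a diet with a krill powder extract and 7 fed the control diet, with 1 mouse on each Affymetrix array. All 14 animals were housed singly, received 84 kcal per week of food formulated after AIN93M, started their diets at 2 months of age and were sampled at 5 months, after 3 months of feeding. Total protein and total lipid were equal in the diets, while their amino acids and fatty acids were not. In whole liver, fewer endothelial cells and less RNA per endothelial cell cannot be told apart. Each array is a separate animal, so the p-values measure the spread between mice and their arrays together.

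Liver sinusoidal endothelial cells line the blood channels between plates of hepatocytes. They lack a continuous basement membrane, are perforated by open pores called fenestrae, and take up waste molecules from blood through a set of scavenger receptors. Among these receptors are the stabilins, encoded by Stab1 and Stab2, the hyaluronan receptor Lyve1 and the immune complex receptor Fcgr2b. Their identity depends on signalling through Kdr, the main receptor for vascular endothelial growth factor, and on transcription factors such as GATA4 and MAF. Some members are also expressed by other cells: Pecam1 is made by platelets and leukocytes, Stab1 and Dnase1l3 by some macrophages, and Fcgr2b by B cells and macrophages.

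RefSeq promoter sequences of build GRCm38.p6, running from 250 bases before the start of the gene to 50 bases after it, were matched by symbol for 5 of the 10 members, Stab1, Stab2, Clec4g, Fcgr2b and Kdr. The promoters of the stabilin genes are shown because only Stab2 passed the test below, and that of Fcgr2b because its probe sets disagreed. Capitals mark letters found on either strand for the ETS family (CAGGAA or CCGGAA), the GATA family (AGATAA or AGATAG or TGATAA or TGATAG) and the MAF half-site (TGCTGA), the last of which can overlap a GATA match.
Stab2, chr10:87007893-87008192, minus strand: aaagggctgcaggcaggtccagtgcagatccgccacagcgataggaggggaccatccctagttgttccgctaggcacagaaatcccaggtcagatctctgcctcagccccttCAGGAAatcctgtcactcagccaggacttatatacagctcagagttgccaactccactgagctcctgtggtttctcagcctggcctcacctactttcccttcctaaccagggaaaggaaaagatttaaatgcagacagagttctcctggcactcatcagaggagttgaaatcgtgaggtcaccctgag
Stab1, chr14:31168592-31168891, minus strand: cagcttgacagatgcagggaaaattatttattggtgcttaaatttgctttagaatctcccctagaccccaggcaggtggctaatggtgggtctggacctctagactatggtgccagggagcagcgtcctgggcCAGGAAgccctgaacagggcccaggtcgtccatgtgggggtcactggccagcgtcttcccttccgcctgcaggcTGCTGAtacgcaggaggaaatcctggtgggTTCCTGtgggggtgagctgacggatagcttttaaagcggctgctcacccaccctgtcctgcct
Fcgr2b, chr1:170976022-170976321, minus strand: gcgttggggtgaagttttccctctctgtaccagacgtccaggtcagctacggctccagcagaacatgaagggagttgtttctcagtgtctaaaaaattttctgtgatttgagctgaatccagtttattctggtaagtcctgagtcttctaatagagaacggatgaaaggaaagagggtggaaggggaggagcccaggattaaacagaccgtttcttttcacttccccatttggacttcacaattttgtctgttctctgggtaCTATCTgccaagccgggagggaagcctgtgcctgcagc
The Stab2 window held 1 ETS match, 138 bases before the start, and no GATA or MAF letters. The Stab1 window held 2 ETS matches, 117 and 13 bases before the start, and 1 MAF half-site 43 bases before it. Fcgr2b had 1 GATA match, 12 bases after the start, Clec4g had 1 ETS and 1 GATA match, and Kdr had 1 ETS match. Such letters are common. Among 32851 RefSeq promoter windows of the same length, 41.4% held the ETS letters, 29.8% the GATA letters and 19.5% the MAF letters. The matches describe these windows and are not binding sites.

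Signals are the deposited linear intensities, and every array had been scaled to a trimmed mean of 500.004 to 500.005. As a gauge of background, 78 probe sets for olfactory and vomeronasal receptors, genes of the nose, were read on each array. Their 95th percentile lay between 110 and 551 in krill arrays and between 99.1 and 131 in control arrays. Hybridisation spike-ins stood at 12.92 to 14.34 on the log2 scale in krill arrays and at 12.59 to 13.22 in control arrays, with krill replicates 2, 4, 5 and 7 above every control array. The 3'/5' signal ratio of actin, a sign of RNA quality, was 2.48 to 3.79 in krill arrays and 1.78 to 2.44 in control arrays. For pyruvate carboxylase it was 11.6 to 25.7 in krill arrays and 4.49 to 10.7 in control arrays. Because krill replicates 2, 4, 5 and 7 had the bright spike-ins, the comparison was also run without them. This set krill replicates 1, 3 and 6 against 7 control arrays, so it can miss changes that the full comparison calls. The kept krill arrays had actin ratios of 3.01, 2.49 and 2.48 and pyruvate carboxylase ratios of 11.6, 11.8 and 25.7. All lay above every control array, so this fit did not remove the difference in RNA quality. Their receptor 95th percentiles were 110, 248 and 132, against at most 131 in control arrays, so the raised background was not fully removed either. The part of background and RNA quality in the results was not tested beyond these values and the alternative fits. Hepatocyte markers showed the liver: the signal of Alb, serum albumin, averaged 92469 ± 24079 (SD, n = 7) in krill arrays and 63215 ± 12783 (SD, n = 7) in control arrays. Its log2 change of 0.53 passed (limma adjusted p = 0.0284) and stood at 0.37 without those 4 krill arrays, where it did not (limma adjusted p = 0.136).

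Krill livers were set against control livers to ask which members differed in level after 3 months on the diets. Dnase1l3, a secreted nuclease, and Stab2, a scavenger receptor for hyaluronan, were 3.95-fold and 1.86-fold lower in krill livers. Lyve1, another hyaluronan receptor, was 2.08-fold higher, Gpr182, an atypical chemokine receptor, 1.81-fold higher, and Fcgr2b was 1.77-fold higher by 1 of its probe sets. Stab1, Kdr, Clec4g and Oit3 did not pass. The members thus did not move as a block. Of the 17 probe sets 14 passed the filter on mean signal (the brighter 50% over all arrays), and 7 of these 14 passed the test, 4 higher and 3 lower (limma, Benjamini-Hochberg adjusted p under 0.05 over 22519 probe sets). Over all probe sets tested 46.0% passed, 20.8% higher and 25.2% lower, so the count of members lies near the background. With 1 probe set per gene, the brightest, 4 of 9 members passed, 2 higher and 2 lower, against 48.0% of 11343 genes, 23.2% higher and 24.7% lower. The median log2 change of these 9 members was 0.31, and that of all genes 0.05.

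Without krill replicates 2, 4, 5 and 7 the calls of Stab2 and of both Dnase1l3 probe sets held, while the 4 higher calls were lost and Clec4g passed as higher. In that fit 4 of 14 member probe sets passed, against 6746 of 22519 over all, so the count of members again lies near the background. Centring arrays on their medians moved the median log2 change of all probe sets by -0.41, and scaling on the spike-ins by -0.75. Of all probe sets called, 45.2% were higher with the deposited scaling, 21.1% with centring and 6.73% with spike-in scaling. When an RNA quality index, the mean log2 of both 3'/5' ratios, entered as a covariate, limma called 0 of the 22519 probe sets, members included, although 3241 had an unadjusted p under 0.05. Neither of the ratios behind that index overlapped between the diets, so diet and RNA quality cannot be told apart by this fit.

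**Figure D1:**
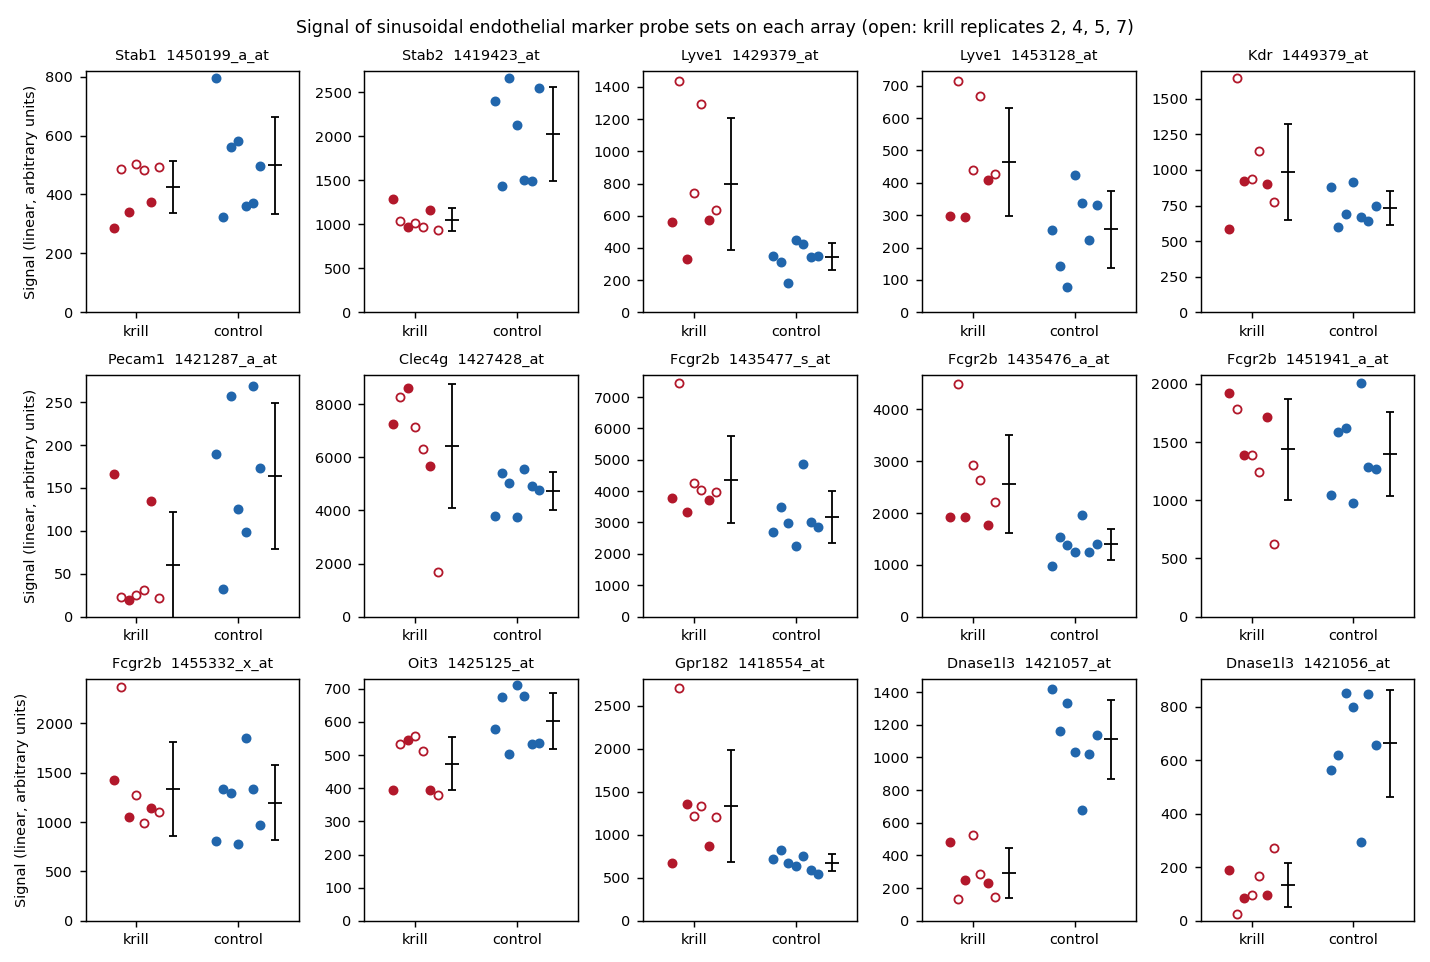
Signal (linear, arbitrary units, each axis from 0) of the 14 tested member probe sets and of Pecam1 on every array, krill left and control right; points are single mice, open points are krill replicates 2, 4, 5 and 7, and black bars are the mean ± SD of 7 arrays. The Stab2 and Dnase1l3 points of the diets are separate, with Stab2 at most 1293 in krill and at least 1437 in control livers, whereas the points of the other panels overlap.

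Stabilin-2, the product of Stab2, is the main receptor by which sinusoidal cells clear hyaluronan from blood. Its probe set 1419423_at had a lowest, median and highest signal of 929.6, 1013 and 1293 in krill livers, against 1437, 2129 and 2658 in control livers. The diets did not overlap, and the krill arrays were the tighter group, with an SD of 0.17 against 0.39 on the log2 scale. The mean was 1054 ± 129 (SD, n = 7) in krill and 2024 ± 537 (SD, n = 7) in control livers. On the log2 scale the difference was -0.90 (SE 0.18), which passed (limma adjusted p = 0.000689). Groups without overlap and with krill below were found in 3 of the 14 member probe sets (Stab2 and both of Dnase1l3), against 7.88% of all probe sets, and none of the 14 had krill above, against 5.24%. Stab2 still passed at -0.78 when krill replicates 2, 4, 5 and 7 were left out (limma adjusted p = 0.0141). Quantile normalization gave -0.71 and scaling on spike-ins -1.67, where the medians of all probe sets were -0.04 and -0.75. With the spike-in level as covariate Stab2 stood at -0.66 and only just passed (limma adjusted p = 0.0473). The fit with the RNA quality index gave -0.94, which missed the threshold (limma adjusted p = 0.285).

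Stabilin-1, from Stab1, is the related receptor that takes up modified lipoproteins and the matrix protein SPARC. Its probe set 1450199_a_at gave 285.4, 483.8 and 502.8 (lowest, median, highest) in krill livers and 324.3, 496.4 and 794.8 in control livers, with wide overlap. The log2 change was -0.19 (SE 0.21, limma adjusted p = 0.468). In this gene the 4 krill arrays with bright spike-ins were the 4 highest of their diet, between 483.8 and 502.8, and krill replicates 1, 3 and 6 stood at 285.4, 341.6 and 374.6. The receptor background on krill replicates 2, 4, 5 and 7 was 375, 374, 551 and 404, so replicate 5 lay below it. Stab1 exceeded that background on 6 of 7 krill and 7 of 7 control arrays. Leaving out krill replicates 2, 4, 5 and 7 gave -0.50 (limma adjusted p = 0.144). Stab1 stood at 0.02 with quantile normalization, and passed as lower at -0.60 with array centring and at -0.96 with spike-in scaling, where the medians of all probe sets were -0.41 and -0.75.

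Dnase1l3 encodes a nuclease that is released into blood and digests DNA of dying cells. Its brighter probe set, 1421057_at, gave 135.4, 249.5 and 527.7 (lowest, median, highest) in krill livers and 677.9, 1140 and 1416 in control livers. The dimmer one, 1421056_at, gave 24.4, 97.2 and 273 in krill livers and 293.5, 657.6 and 852.7 in control livers. Both probe sets separated the diets completely. The log2 changes were -1.98 (SE 0.27, limma adjusted p = 4.31e-05) and -2.34 (SE 0.35, limma adjusted p = 7.66e-05), or 3.95-fold and 5.05-fold lower in krill livers. In krill livers the brighter probe set exceeded the receptor background in 4 of 7 arrays and the dimmer one in 1 of 7, while all control arrays exceeded it with both. With signals raised to that background the changes were -1.46 and -1.05, and both still passed (limma adjusted p = 1.47e-05 and 0.00355). In the fit lacking krill replicates 2, 4, 5 and 7 the values were -1.79 and -2.29. The fit with the RNA quality index gave -1.04 and -1.71, and neither passed (limma adjusted p = 0.394 and 0.308).

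Lyve1 encodes a hyaluronan receptor of lymphatic vessels and of sinusoids. Probe set 1429379_at gave 332.8, 638.7 and 1439 (lowest, median, highest) in krill livers and 185.1, 349.5 and 452.2 in control livers. Krill replicate 3, at 332.8, lay within the control range, and the other 6 krill arrays lay above it. Probe set 1453128_at gave 295.3, 427.4 and 714.6 in krill livers and 79.2, 255.6 and 423.6 in control livers, with 4 krill arrays above the control range. Those 4 were replicates 2, 4, 5 and 7, at 714.6, 439, 667.3 and 427.4. The receptor background on them was 375, 374, 551 and 404, against at most 131 in control arrays. Both probe sets exceeded that background on all 7 krill arrays. The log2 changes were 1.06 (SE 0.28, limma adjusted p = 0.0056) and 0.90 (SE 0.31, limma adjusted p = 0.024). The highest krill values of both probe sets were those of replicates 2 and 5. When krill replicates 2, 4, 5 and 7 were left out, the changes were 0.48 and 0.50 and neither passed (limma adjusted p = 0.169 and 0.352). They were 0.29 and 0.16 with spike-in scaling, and under the RNA quality index they turned to -0.12 and -0.49, without passing. The dimmer probe set also failed without krill replicate 2 or 5 or without control replicate 2 or 3, at 0.79, 0.80, 0.80 and 0.67 (limma adjusted p from 0.0522 to 0.0532).

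Gpr182 encodes a chemokine-binding receptor of sinusoidal and lymphatic endothelium. Its signal was 667.2, 1223 and 2701 (lowest, median, highest) in krill livers and 538.8, 665.7 and 819.2 in control livers. Krill replicate 1 lay within the control range and the other 6 krill arrays above it, replicate 2 the highest. The log2 change was 0.86 (SE 0.23, limma adjusted p = 0.00653), against 0.45 without krill replicates 2, 4, 5 and 7, where the call was lost (limma adjusted p = 0.111). It was 0.08 with spike-in scaling.

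Kdr, the main receptor for vascular endothelial growth factor A, gave 582.6, 922.2 and 1645 (lowest, median, highest) in krill livers and 597.3, 689 and 915.7 in control livers. The control range held 2 krill arrays, 4 lay above it and 1 below. The log2 change was 0.37 (SE 0.20, limma adjusted p = 0.136). It passed without krill replicate 1 at 0.48 (limma adjusted p = 0.0386) and with quantile normalization at 0.61 (limma adjusted p = 0.0259). Kdr stood at -0.04 with array centring and at -0.41 with spike-in scaling, without passing. Lacking krill replicates 2, 4, 5 and 7 it stood at 0.11 (limma adjusted p = 0.698).

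Clec4g encodes LSECtin, a lectin of sinusoidal cells that binds glycans. Probe set 1427428_at gave 1672, 7157 and 8627 (lowest, median, highest) in krill livers and 3740, 4914 and 5547 in control livers. Of the krill arrays 6 lay above the whole control range, between 5679 and 8627, and replicate 7 lay below it at 1672. The mean was 6427 ± 2335 (SD, n = 7) in krill and 4742 ± 721 (SD, n = 7) in control livers, and the log2 change of 0.31 (SE 0.28) did not pass (limma adjusted p = 0.377). Without krill replicate 7 it was 0.61 and passed (limma adjusted p = 0.00435), and without krill replicates 2, 4, 5 and 7 it was 0.59 (limma adjusted p = 0.016). It was -0.10 with array centring and -0.48 with spike-in scaling, without passing. In krill replicate 7 the 3'/5' ratio of another housekeeping gene, Gapdh, was 1.69, against 0.75 to 1.00 in the other krill arrays and 0.75 to 0.90 in the control arrays. The second Clec4g probe set, 1431575_at, was too dim to be tested and exceeded the receptor background on 0 of the 14 arrays.

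Fcgr2b encodes the inhibitory receptor for immunoglobulin G, by which sinusoidal cells take up small immune complexes, and its probe sets disagreed. Probe set 1435476_a_at gave 1777, 2207 and 4493 (lowest, median, highest) in krill livers and 984.4, 1382 and 1966 in control livers, and 4 krill arrays lay above the control range. Its log2 change was 0.82 (SE 0.21, limma adjusted p = 0.00392). The brightest probe set, 1435477_s_at, gave 3324, 3983 and 7449 in krill livers and 2258, 2984 and 4850 in control livers, a change of 0.45 (SE 0.19) that did not pass (limma adjusted p = 0.0646). It did pass with quantile normalization at 0.50 and, left out singly, without krill replicate 3 at 0.51 and without control replicate 5 at 0.56 (limma adjusted p from 0.0222 to 0.0478). The probe sets 1455332_x_at and 1451941_a_at had changes of 0.16 (SE 0.22, limma adjusted p = 0.576) and 0.00 (SE 0.23, limma adjusted p = 0.988). The suffixes s and x mark probe sets that can also bind transcripts of related genes, so these values may include other Fc receptors. Probe set 1435476_a_at lost its call at 0.45 when krill replicates 2, 4, 5 and 7 were left out (limma adjusted p = 0.0742). The fifth probe set, 1447622_at, reached at most 90.1 in krill and 59.0 in control livers, was not tested and exceeded the receptor background on 0 arrays.

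Oit3, which encodes a secreted zona pellucida domain protein made in liver, gave 379.2, 511.3 and 558.2 (lowest, median, highest) in krill livers and 504.6, 577.7 and 713 in control livers. All 7 krill arrays lay below the control mean on the log2 scale, yet the ranges overlapped, and 2 of the 7 krill arrays did not exceed the receptor background. The log2 change of -0.34 (SE 0.16) did not pass (limma adjusted p = 0.0905). It passed as lower with array centring at -0.75 and with spike-in scaling at -1.10 (limma adjusted p = 0.00927 and 0.00191), where the medians of all probe sets were -0.41 and -0.75. Pecam1, the adhesion molecule of endothelial junctions known as CD31, had a probe set below the signal filter. It gave 18.8, 25.6 and 165.9 (lowest, median, highest) in krill livers and 32.4, 173.5 and 268.3 in control livers. It exceeded the receptor background in 2 of 7 krill arrays, replicates 1 and 6, and in 5 of 7 control arrays. In the fit of all probe sets without a filter its log2 change was -1.40 (SE 0.48, limma adjusted p = 0.0336). Lacking krill replicates 2, 4, 5 and 7 it stood at -0.68 and did not pass (limma adjusted p = 0.505). The call was also lost without any 1 of krill replicates 2, 3, 4, 5 and 7 or of control replicates 1, 3, 4, 6 and 7, and with single arrays left out the change ran from -1.25 to -1.68. These fits were chosen after seeing the data.

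**Figure D2:**
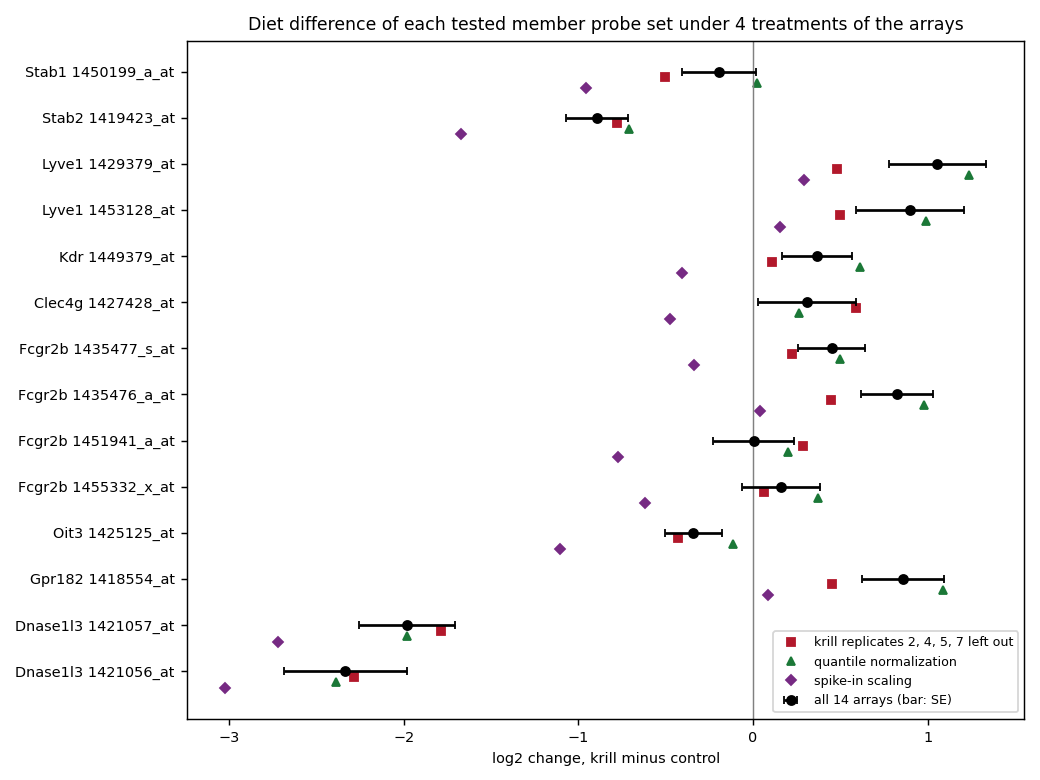
Log2 change (krill minus control) of each tested member probe set; black circles with SE bars use all 14 arrays as deposited, red squares leave out krill replicates 2, 4, 5 and 7, green triangles use quantile normalization and purple diamonds use spike-in scaling. Stab2 and both Dnase1l3 probe sets stay left of 0 in all 4 treatments, from -0.71 to -3.02, and the higher values of Lyve1, Gpr182 and Fcgr2b 1435476_a_at move towards 0 in the red and purple points. With spike-in scaling the median of all probe sets was -0.75.

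Ratios between members on the same array do not depend on how the array was scaled, so pairs of members were set side by side, chosen with their values known and given without a test. The log2 ratio of Stab2 to Kdr signal ran from -0.66 to 1.15 in krill livers and from 1.17 to 1.95 in control livers. The log2 ratio of Stab2 to Lyve1, both hyaluronan receptors, ran from -0.47 to 1.55 in krill livers and from 1.83 to 3.84 in control livers. In these pairs the diets did not overlap, which also held for the Stab2 signal alone. For Dnase1l3 against Fcgr2b the log2 ratio ran from -5.78 to -2.97 in krill livers and from -2.84 to -0.93 in control livers, again without overlap. On krill replicates 2, 5 and 7 Dnase1l3, at 135.4, 287.4 and 145.6, lay below the receptor background of 375, 551 and 404. The depth of those ratios is therefore limited by that background, which a ratio does not remove. The Dnase1l3 signal alone did not overlap between the diets either. For Stab2 against Stab1 it ran from 0.91 to 2.18 in krill livers and from 1.59 to 2.36 in control livers. This pair overlapped, with 5 of 7 krill arrays below the control range and krill replicates 1 and 6 inside it. For Stab2 against Fcgr2b 5 of 7 krill arrays also lay below the control range, with a mean log2 ratio of -2.01 ± 0.42 (SD, n = 7) in krill and -0.65 ± 0.66 (SD, n = 7) in control livers.

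**Figure D3:**
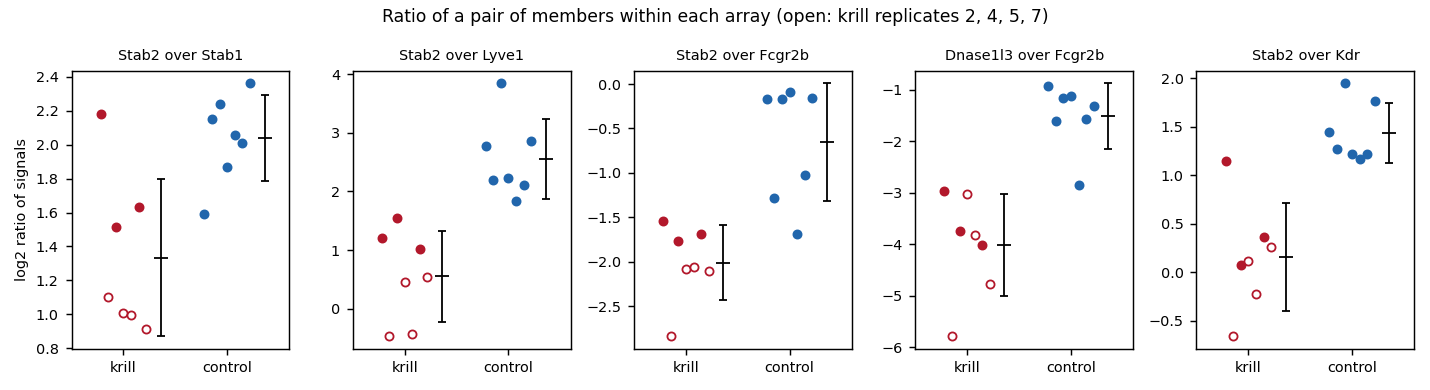
Log2 ratio of the signals of a pair of members on each array, krill left and control right, brightest probe set of each gene; points are single mice, open points are krill replicates 2, 4, 5 and 7, and black bars are the mean ± SD of 7 arrays. The diets are separate for Stab2 over Lyve1, Dnase1l3 over Fcgr2b and Stab2 over Kdr, and overlap for Stab2 over Stab1 and Stab2 over Fcgr2b. Dnase1l3 lay below the receptor background on krill replicates 2, 5 and 7.

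Once the mean of each diet was taken out, the members varied from mouse to mouse with little common pattern. Over 14 arrays, which share RNA quality and scaling as sources of variation, the Pearson correlation of the deviations ran from -0.54 (Gpr182 with Dnase1l3) to 0.74 (Gpr182 with Kdr), with a median of 0.21 over 36 pairs and 25 pairs above 0. Kdr also varied with Stab1 at 0.63 and with Lyve1 at 0.61, and Gpr182 with Fcgr2b at 0.65. Stab2 and Dnase1l3, the genes that fell, varied with each other at 0.40 and against Fcgr2b at -0.39 and -0.49. The probe sets of Lyve1 correlated at 0.83, those of Dnase1l3 at 0.35, and those of Fcgr2b between 0.33 and 0.90. Among 19201 other named probe sets the patterns most like the mean of 9 members were those of Kank3 at 0.91, Telo2 at 0.91, Nfkbil1 at 0.91, Ppp1r14a at 0.90 and Diaph1 at 0.90, by Pearson correlation over the 14 arrays. Of these, Nfkbil1 and Diaph1 were higher in krill livers at log2 changes of 0.65 (SE 0.24) and 0.98 (SE 0.35) (limma adjusted p = 0.0312 and 0.0282), neither of which passed without krill replicates 2, 4, 5 and 7 at 0.36 and 0.45 (limma adjusted p = 0.173 and 0.307), and Kank3 stood at 0.02 (limma adjusted p = 0.95).

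Other genes enriched in sinusoidal endothelium also moved both ways. Of 18 such genes 17 were tested, each by its brightest probe set, and 5 rose, 3 fell and 9 did not pass, with a median log2 change of 0.39. Over all genes read this way 48.0% passed, 23.2% higher and 24.7% lower. These shares are the background for the counts of this and the following lists. In the fit without krill replicates 2, 4, 5 and 7 the background was 2250 of 22519 probe sets higher and 4496 lower. Ehd3, an endocytic membrane protein, fell by 1.24 on the log2 scale (SE 0.19) and by 1.15 without krill replicates 2, 4, 5 and 7. Gata4, the transcription factor that keeps sinusoidal identity, changed by -1.55 (SE 0.32) and exceeded the receptor background in 2 of 7 krill and 7 of 7 control arrays. Bmp2, which signals iron status to hepatocytes, changed by 1.80 (SE 0.30) and Adam23, a membrane protein of the disintegrin family, by 1.34 (SE 0.27). Without those 4 arrays they stood at 0.95 and 0.56 and still passed (limma adjusted p = 0.00401 and 0.0299), and 2 of the 17 then rose and 3 fell. The summed signal of the list was 10876 to 30635 in krill and 10058 to 11790 in control livers.

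Of 26 tested pan-endothelial genes 6 rose, 5 fell and 15 did not pass, with a median of 0.18. Of the 5 that fell, S1pr1 exceeded the receptor background on 7 of 7 krill arrays. Sox18, Cd93, Tie1 and Arhgef15 did so on 1, 1, 1 and 0 of 7 krill arrays, so the depth of their falls is limited by that background. The genes with the smallest p were Myct1 at 1.52 (SE 0.30), the vascular phosphatase Ptprb at 0.98 (SE 0.22), the adhesion receptor Adgrl4 at 0.87 (SE 0.22) and Clec14a at 0.80 (SE 0.21), all higher (limma adjusted p from 0.00067 to 0.00495). Without krill replicates 2, 4, 5 and 7 the median was -0.16, 2 genes rose and 6 fell, and Ptprb and Clec14a lost their calls (limma adjusted p = 0.0512 and 0.0716). Cdh5, the endothelial cadherin, had a log2 change of 0.20 (limma adjusted p = 0.528). Summed signals were 11865 to 24553 in krill and 11422 to 12488 in control livers. Markers of large vessels, capillaries and lymphatics had 9 tested genes, of which 4 rose and 2 fell. Without those 4 arrays 1 rose and 3 fell, and Vcam1 and Selp, adhesion molecules that bind leukocytes, lost their calls at 0.24 and 0.33 (limma adjusted p = 0.534 and 0.411). Plvap, the protein of pore diaphragms, changed by -1.74 (SE 0.34), Prox1, a factor of lymphatic cells and hepatocytes, by -0.89 (SE 0.22), and the water channel Aqp1 by 0.48 (SE 0.16). Plvap and Prox1 each exceeded the receptor background on 3 of 7 krill and 7 of 7 control arrays. The arterial ligand Efnb2 changed by 1.14 (SE 0.41) and stood at 0.06 without those 4 arrays; it exceeded the receptor background on 1 krill and 2 control arrays.

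The ligands and partners of the members were read from further lists. Of 9 tested growth factor ligands and receptors around Kdr 3 rose, 3 fell and 3 did not pass. Angpt1, among the 3 that rose, exceeded the receptor background on 0 krill arrays and 1 control array. Vegfa and Vegfb, ligands of this receptor family, changed by -1.67 (SE 0.28) and -3.40 (SE 0.39), Flt4, the receptor for Vegfc, by -1.59 (SE 0.37), and the co-receptor Nrp1 by 1.21 (SE 0.20). All 4 passed without krill replicates 2, 4, 5 and 7 as well, at -1.19, -2.79, -2.24 and 0.75, and 1 of the 9 then rose and 4 fell. Vegfb and Flt4 exceeded the receptor background in 2 of 7 krill arrays each and in all control arrays. Among hyaluronan genes, which bear on Stab2 and Lyve1, 3 of 10 rose, 3 fell and 4 did not pass. Has1, among the 3 that rose, also exceeded the receptor background on 0 krill arrays and 1 control array. Itih2 and Itih1, serum proteins that become bound to hyaluronan, changed by -2.26 (SE 0.46) and -1.09 (SE 0.27), and stood at -0.85 and -0.36 without those 4 arrays, where the call of Itih1 was lost (limma adjusted p = 0.0761). Cd44, a hyaluronan receptor, changed by 0.70 (SE 0.20) and did not pass without those 4 arrays (limma adjusted p = 0.188). Hmmr, another, passed as higher with all arrays and not without those 4 (limma adjusted p = 0.00283 and 0.262), and since it exceeded the receptor background on 4 of 7 krill arrays and 0 control arrays no size is given. Of 6 genes around Fcgr2b the activating receptors Fcgr4 and Fcgr1 rose, at 0.94 (SE 0.24) and 1.14 (SE 0.36), and 4 did not pass, among them Fcgr3 at -0.33 and the neonatal receptor Fcgrt at -0.50. Fcgr4 exceeded the receptor background on 5 of 7 krill and 6 of 7 control arrays, and Fcgr1 on 4 of 7 in each diet. In the fit without krill replicates 2, 4, 5 and 7, limma called 0 of the 6, with 0 at an unadjusted p under 0.05. Fcgr4 and Fcgr1 then stood at 0.57 and 0.17.

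**Figure D4:**
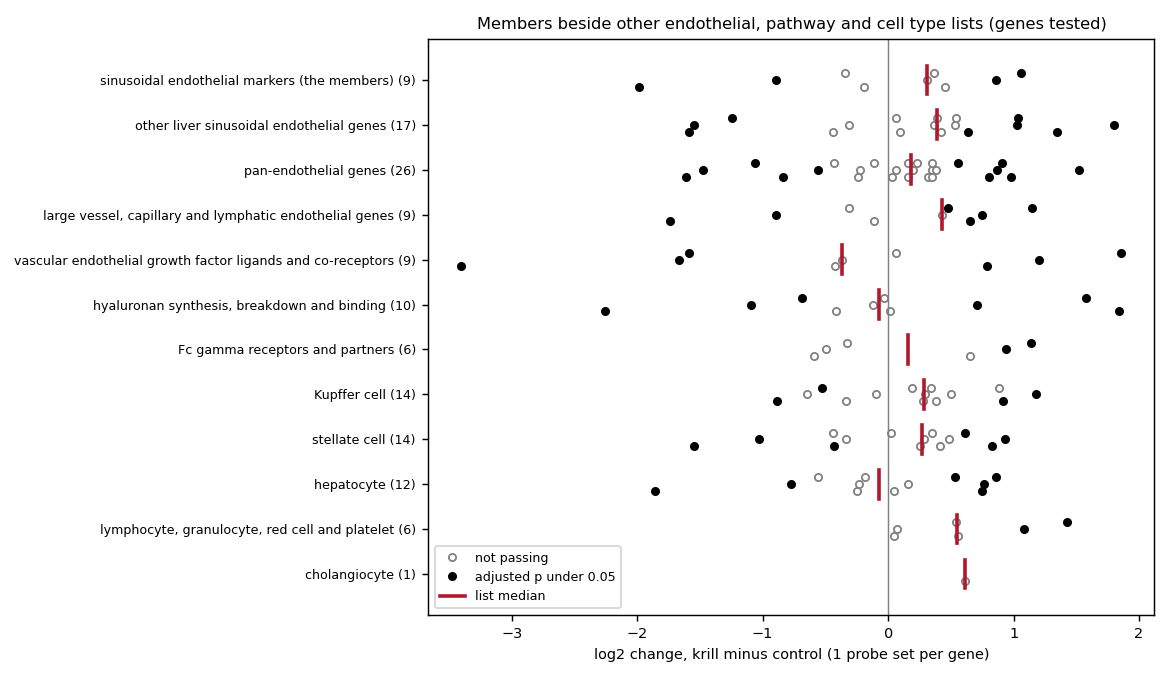
Log2 change (krill minus control) of the tested genes of each list, 1 probe set per gene, with the number of genes in brackets; filled points passed at an adjusted p under 0.05, open points did not, and red bars are list medians. The members spread from -1.98 to 1.06 around a median of 0.31, and the 3 other endothelial lists likewise have called genes on both sides of 0.

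Markers of the other liver cells were set beside the members, and their part in the members' values was not tested. Of 14 tested Kupffer cell markers 2 rose, 2 fell and 10 did not pass, with a median of 0.29. Cd5l, a secreted macrophage protein, changed by 1.18 (SE 0.20), Adgre1, the F4/80 antigen, by 0.92 (SE 0.23), Vsig4, a complement receptor, by -0.89 (SE 0.24) and C1qc by -0.53 (SE 0.19). Without krill replicates 2, 4, 5 and 7 Vsig4 and C1qc lost their calls at -0.35 and -0.23 (limma adjusted p = 0.271 and 0.39), and 2 markers rose and 1 fell. Their summed signal was 18075 to 33704 in krill and 19548 to 24392 in control livers. Of 14 stellate cell markers 3 rose and 3 fell, with a median of 0.27, led by Ecm1 at -1.55 (SE 0.22), Rgs5 at 0.93 (SE 0.16), the retinol-storing enzyme Lrat at 0.82 (SE 0.19) and Colec11 at 0.61 (SE 0.17), and summed signals were 23387 to 29337 in krill and 21973 to 28375 in control livers. Colec11 lost its call at 0.25 without those 4 arrays (limma adjusted p = 0.193), where 2 stellate markers rose and 2 fell. Of 12 hepatocyte markers 4 rose and 2 fell, with a median of -0.07. Tat, an enzyme of tyrosine breakdown, changed by -1.86 (SE 0.42), and the secreted proteins Apoc3, Ttr and Apoa1 by 0.75, 0.86 and 0.76, which stood at 0.06, 0.11 and -0.04 with quantile normalization. None of these 4 passed without krill replicates 2, 4, 5 and 7, where Tat stood at -0.64 and the others at 0.40, 0.33 and 0.26 (limma adjusted p from 0.0795 to 0.232). In that fit limma called 0 of the 12, with 2 at an unadjusted p under 0.05. The list had summed signals of 541032 to 935483 in krill and 442952 to 612158 in control livers. Of 6 tested blood cell markers S100a8 and Ms4a1, of granulocytes and B cells, rose at 1.42 (SE 0.30) and 1.09 (SE 0.28) and 4 did not pass. S100a8 exceeded the receptor background on 3 krill arrays and 1 control array, and Ms4a1 on 2 krill and 2 control arrays. Without the 4 krill arrays Ms4a1 stood at 0.61 and did not pass (limma adjusted p = 0.147). The list had summed signals of 4427 to 9974 in krill and 4402 to 5018 in control livers. Of the bile duct markers only Epcam was bright enough to be tested, did not pass (limma adjusted p = 0.312) and exceeded the receptor background on 0 krill and 4 control arrays, and the list summed to 187 to 875 in krill and 213 to 341 in control livers. No marker in any list was listed at 0. Sox9, Krt19 and Cftr of the bile duct list exceeded the receptor background on 0 arrays.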

How the data were processed

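Signal intensity per probe set was deposited on a linear scale and made by the authors with MAS5, per the submitters' processing notes; the sources used here give no version. Scanner files and detection calls were not used here, so the number of arrays and the receptor background limit the precision at low signal. Diet and replicate number were read from each sample's title. Of 45101 probe sets 64 are controls, 34945 have 1 gene symbol, 932 several and 9160 were not listed with a gene. The 22519 probe sets in the brighter 50% by mean over all arrays (at least 123.5) were tested as log2(signal + 16), which understates folds of dim genes, with limma 3.58.1 in R 4.3.3 (lmFit, eBayes with a mean-variance trend), krill minus control on 14 arrays with no covariate, and adjusted by Benjamini-Hochberg at 0.05. Probe sets below the filter were read from a fit of all 45037.

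The members and lists were chosen with earlier results of these data known. All member probe sets are named or counted. From each of 11 other lists up to 4 genes with the smallest p are named. Alb, Maf, Cdh5, Vcam1, Selp, S1pr1, Sox18, Cd93, Tie1, Arhgef15, Angpt1, Has1 and the untested bile duct genes were added after their values were seen. The list counts include genes that exceeded the receptor background on few arrays. Lists are read by 1 probe set per gene, the brightest. The RNA quality index averages, on the log2 scale, the 3'/5' ratios of actin and pyruvate carboxylase, and 18 spike-in probe sets gave the hybridisation level. The test was checked on simulated data. There were 30 alternatives: pseudocount 1 or 64, quantile normalization, median centring, spike-in scaling, no filter or the brightest 30%, 1 value per gene by 2 rules, no trend, weights per array, a block for replicate number, spike-in level or RNA quality index as covariate, a floor at the receptor background, leaving out krill replicates 2, 4, 5 and 7, and leaving out each of 14 arrays. No array was a copy of another. Motifs and figures were made in Python 3.11.15 with pandas 2.3.3 and matplotlib 3.10.9.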

Additional observations from a re-analysis of the deposited data

Results flagged for a closer look

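Within the 7 arrays of a diet, 6 of 34 groups of member values (17 probe sets in 2 diets) held an array far from its nearest neighbour relative to the range, with a ratio above Dixon's critical value on the log2 scale; chance gives about 1 in 20. Krill replicate 7 stood low for Clec4g 1427428_at, at 1672 against 5679 to 8627 in the other krill arrays, and for Fcgr2b 1451941_a_at, at 621.1 against 1246 to 1920. Krill replicate 2 stood high for Fcgr2b 1435477_s_at, at 7449 against 3324 to 4273, and for Fcgr2b 1455332_x_at, at 2369.8 against 994.4 to 1424. Control replicate 3 stood low for Lyve1 1429379_at, at 185.1 against 315.2 to 452.2 in the other control arrays, and control replicate 5 for Dnase1l3 1421056_at, at 293.5 against 564.5 to 852.7.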

How the results depend on the processing

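The 7 member calls (4 higher, 3 lower) and the 10365 calls over all probe sets (4684 higher, 5681 lower) were recomputed under 30 alternatives. The calls of Stab2 and Dnase1l3 held in 29 of 30, all but the RNA quality index as covariate; the cause of each change below was not tested. With array centring 1 member probe set was higher and 5 lower, and 2059 of all probe sets were higher. With spike-in scaling 0 members were higher and 5 lower, with 799 and 11081 over all. With the spike-in level as covariate 3 members were called, 0 of them higher, with 3466 calls over all, 1137 higher and 2329 lower. With the RNA quality index limma called 0 members in either direction and 0 probe sets over all, 0 higher and 0 lower, while 4 members and 3241 of all had an unadjusted p under 0.05. Without krill replicates 2, 4, 5 and 7 there were 4 member calls, 1 of them higher, and 6746 calls over all, 2250 higher. With the brightest probe set per gene, where fewer features are tested, 4 members were called, 2 of them higher, and 5566 genes (2693 higher, 2873 lower), and averaging the probe sets of each gene gave 4 member calls, 2 higher, and 5573 genes (2586 higher, 2987 lower). Without a filter 7191 probe sets were higher, in the brightest 30% 3020, and with signal raised to the background 9079 were higher and 3751 lower. Of 410 single probe set values 354 kept direction and side of the threshold, 25 were no longer called, 11 became called and 20 changed sign, 2 of them of called probe sets, the Lyve1 pair with the RNA quality index (-0.12 and -0.49). Sign changes of uncalled values were 0.024 for Stab1 with quantile normalization, -0.036, -0.41 and -0.21 for Kdr with centring, spike-in scaling and the RNA quality index, and with centring and spike-in scaling -0.10 and -0.48 for Clec4g, -0.40 and -0.77 for Fcgr2b 1451941_a_at, and -0.25 and -0.62 for 1455332_x_at. Fcgr2b 1435477_s_at was -0.34 with spike-in scaling, and 1451941_a_at ran from -0.077 to 0.19 with single arrays left out. Same-numbered krill and control arrays deviated from their diet means with correlations of -0.03 to 0.09. Arrays of different number were not compared, so these values do not settle whether the numbers pair the mice. With the replicate block 7 members and 10088 probe sets were called. The depth of low signals is limited by the receptor background, above which Pecam1, Dnase1l3, Oit3 and Stab1 did not stand in every krill array.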
